A study of Rattus norvegicus with 8 samples.

Results

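The genes described here are 31 genes of cholesterol and fatty acid synthesis, of the regulators that set their transcription, and of sterol transport, measured in hippocampal RNA of male Sprague Dawley rats exposed to low-pressure hypoxia. Members were chosen by name: every probe of the array that carries the name of a listed gene was taken, and the rule itself uses no measured value, although the list was drawn up with earlier results of these data known. Of the 31 genes, 29 had a probe under the listed name, on 33 probes in all, and all 29 were among the 21296 genes tested. Another 2 are on the array under other names, Acat2 as Acat3 and Sc4mol as Msmo1, and their values are given beside the members without being counted.

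RNA came from 4 groups with 2 single-colour Agilent arrays each. These were rats in normoxia and rats held for 1 day, for 3 days or up to the time titled day 7 in a decompression chamber that imitated 25000 ft, an effective oxygen concentration of 8%. For the last group the titles name day 7 but the exposure field names 5 days, and day 7 is used here as the name of the group. Whether the arrays of a group come from separate animals is not given in the labels, and p-values then cover only array-to-array spread, which may be technical. Normoxia and day 1 lay in row 1 of the slide and day 3 and day 7 in row 2. Slide row and exposure thus cannot be told apart when day 3 or day 7 is set against normoxia. Day 1 against normoxia and day 7 against day 3 lie within a row. Within each row, however, the shorter exposure, or none, occupied columns 1 and 2, while the longer exposure occupied columns 3 and 4. Slide column and exposure thus cannot be told apart in these within-row comparisons. Day 3 against day 1 differs in both slide row and slide column.

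Cells build cholesterol from acetyl-CoA through mevalonate, farnesyl diphosphate, squalene and lanosterol, and brain cells make nearly all of their own because lipoprotein cholesterol does not cross the blood-brain barrier. The transcription factors encoded by Srebf2 and Srebf1 switch these enzymes on. They are held in the endoplasmic reticulum by Scap and the Insig proteins while sterols are plentiful, and are released and cut when sterols run low. Several late steps of the pathway consume molecular oxygen, among them those of squalene epoxidase and lanosterol demethylase. Oxysterols act through the liver X receptors, which drive export by Abca1 and Abcg1.

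Levels are log2 processed signals relative to the 75th percentile of the array, and are compared only between arrays for 1 probe. Changes are log2 differences between group means ± SE with n = 2 arrays a group, and calls were made by limma at a Benjamini-Hochberg adjusted p below 0.05 over the 21296 genes. The 75th percentile of the processed signal lay between 2298 and 4056 on the 8 arrays, 72.6% to 85.6% of spots were well above background, and no spot was saturated. Of the 29 members tested, 28 were well above background on all 8 arrays. The exception was Acaca (acetyl-CoA carboxylase), which was not called in any comparison of the main fit. Acaca was well above background on the 2 normoxia arrays and 1 day 7 array, and on no day 1 or day 3 array. With normexp background correction it was called higher on day 3 (0.48), on day 7 (0.64) and from day 1 to day 3 (0.48). The medians of all genes with normexp were 0.13, 0.22 and 0.15 in these comparisons. Between the arrays of a group, the median gap over members was 0.027 to 0.055 log2. All groups are labelled hippocampus, yet the groups differed in markers of neighbouring tissue. The summed level of 10 choroid plexus markers, in multiples of the array's 75th percentile, was 120.0 and 130.2 for normoxia, 1.78 and 1.84 for day 1, 173.1 and 161.2 for day 3, and 10.6 and 9.81 for day 7. For 7 striatum markers the normoxia arrays gave 4.26 and 4.17, the day 1 arrays 29.9 and 29.9, the day 3 arrays 4.32 and 4.40, and the day 7 arrays 3.60 and 3.44. Fewer cells of a type and less RNA per cell cannot be told apart in these bulk samples.

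Genes of sterol synthesis fell on day 1, were lower in smaller number on day 3 and went both ways on day 7. Of 16 sterol enzymes tested, 15 were lower and none higher on day 1 by limma's test, 12 were lower and 1 higher on day 3, and 7 were lower and 5 higher on day 7. On day 1, 22 members were lower and 2 higher than in normoxia, where 20.2% of all genes were called lower and 15.3% higher. Their median change was -0.38, against -0.07 over all genes. On day 3, 17 members were lower and 2 higher, where 26.2% of all genes were lower and 24.2% higher, with a median of -0.31 against -0.05. By day 7, 12 members were lower and 11 higher, where 29.7% of all genes were lower and 31.5% higher. The members' share of 12 lower in 29 was above that of the whole array, while their share of 11 higher in 29 was near it. The member median of 0.01 was near the -0.03 of all genes. In the F-test over the 3 comparisons 27 of the 29 members were called, where 72.1% of all genes were called. The comparisons share the normoxia arrays. Arrays did not overlap those of normoxia for 27, 25 and 25 of the 29 members on days 1, 3 and 7. Over all genes this held for 74.9%, 77.7% and 80.9%, so a lack of overlap is common on these arrays. Leaving out 1 of the arrays compared left 0 or 1 of the 2 higher calls on day 1 (0 without day 1 array 1) and 0 or 1 on day 3 (1 without day 3 array 1).

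**Figure D1:**
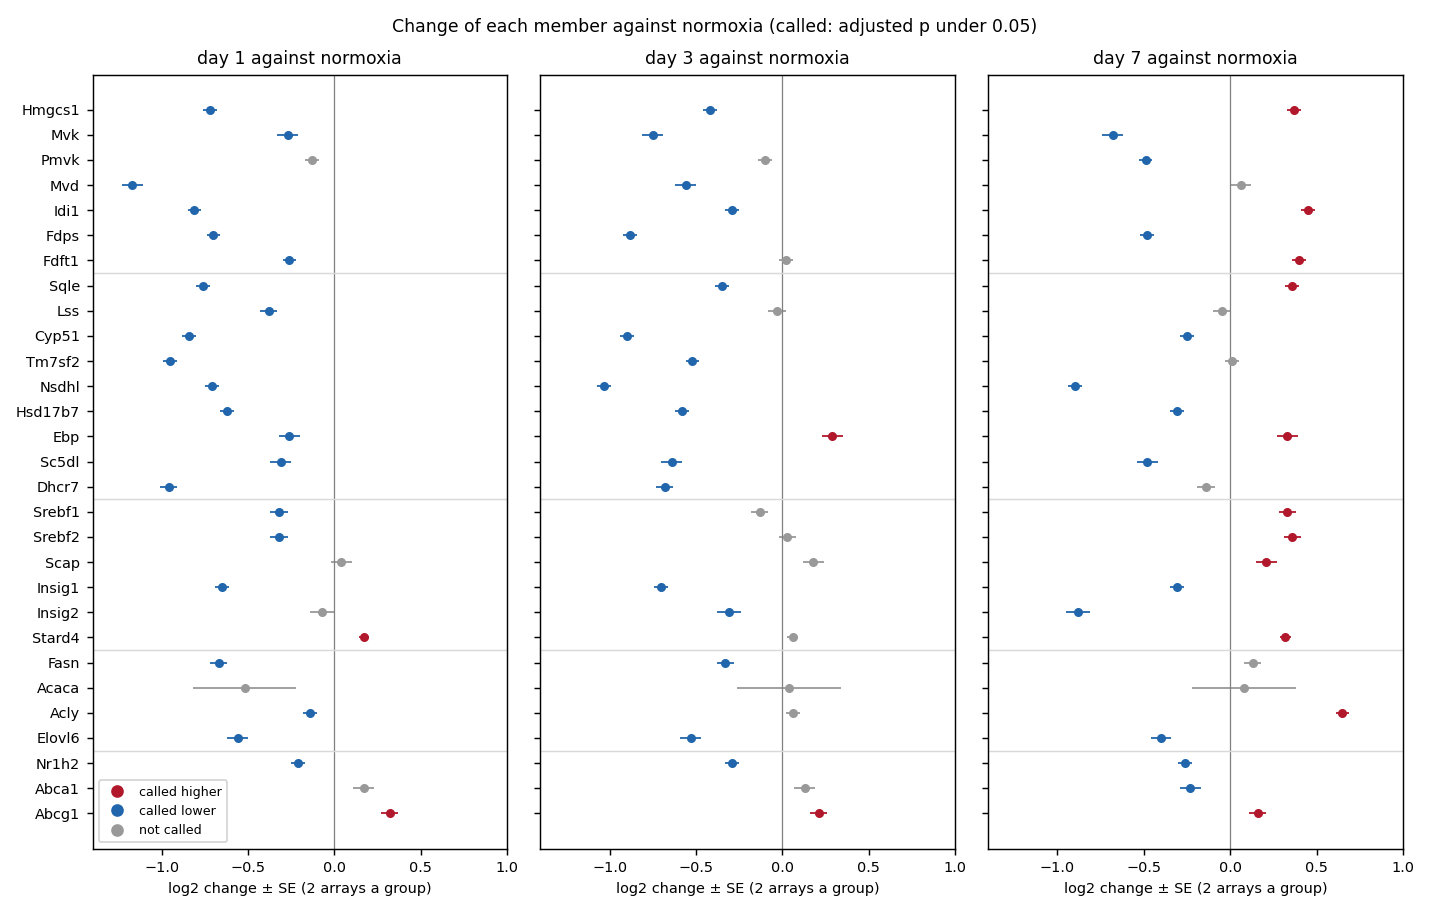
Log2 change ± SE of the 29 member genes on day 1, day 3 and day 7 against normoxia (2 arrays a group), ordered by role; blue points were called lower, red points higher and grey points were not called. Most points lie left of 0 on days 1 and 3, and on both sides of 0 on day 7, when 12 members were lower and 11 higher.

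The enzymes that lead from acetyl-CoA to squalene all had day 1 means below normoxia, and 6 of the 7 tested were called lower. Day 3 had 5 lower and none higher by limma's test, and day 7 had 3 lower and 3 higher. Idi1, the isomerase that makes the activated isoprene units interchangeable, had levels of 2.06 and 2.0 for normoxia, 1.21 and 1.23 for day 1, 1.72 and 1.77 for day 3 and 2.45 and 2.51 for day 7 (probe on rn4 chromosome 17, 72557223 to 72557282). Each group thus stood clear of the others, with the day 1 arrays lowest and the day 7 arrays highest. Its change was -0.81 ± 0.04 on day 1 (limma, adjusted p = 0.000319), -0.29 ± 0.04 on day 3 and 0.45 ± 0.04 on day 7 (adjusted p = 0.000561). The day 3 call was lost with median centring, where the change was -0.14.

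Hmgcs1, the synthase that makes HMG-CoA, had levels of 5.80 and 5.86 for normoxia, 5.09 and 5.14 for day 1, 5.45 and 5.38 for day 3 and 6.19 and 6.21 for day 7 (chromosome 2, 51754514 to 51754573). It followed the order of Idi1, at -0.72 ± 0.04, -0.42 ± 0.04 and 0.37 ± 0.04 on the 3 days, but its day 7 direction turned to -0.13 with quantile normalization and to -0.07 with cyclic loess. Mvd, the decarboxylase at the end of the mevalonate branch, fell furthest of the members on day 1, by 1.17 ± 0.06 or 2.25-fold (adjusted p = 0.000261). It was at -0.56 ± 0.06 on day 3 and at 0.06 ± 0.06 on day 7, when its arrays overlapped those of normoxia. With median centring the day 7 change of Mvd was 0.35 and called higher. Mvk (mevalonate kinase) went another way, with -0.27 ± 0.06 on day 1, -0.75 ± 0.06 on day 3 and -0.68 ± 0.06 on day 7 (adjusted p = 0.000394). Leaving out normoxia array 2 gave a day 1 change of -0.20 for Mvk that was not called, as leaving out either day 1 array also did (-0.25 and -0.28).

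Fdps, which makes farnesyl diphosphate, was lower on each day, at -0.70 ± 0.04, -0.88 ± 0.04 and -0.48 ± 0.04. Its other probe differed, with -0.72, -0.48 and -0.03, so its day 7 call rests on the brighter probe. Fdft1, the squalene synthase, was called lower on day 1 (-0.26 ± 0.04) and higher on day 7 (0.40 ± 0.04). The day 1 call of Fdft1 was lost without day 1 array 1 (-0.25, adjusted p = 0.0551) and with normexp background correction. Pmvk, the kinase after Mvk, was at -0.13 and -0.10 on days 1 and 3, neither called, and fell by 0.49 ± 0.04 on day 7. Acat2, the thiolase that feeds the pathway, was measured as Acat3 and was at -1.06 ± 0.06, -0.74 ± 0.06 and 0.04 ± 0.06 on the 3 days, with the last not called. The other, far dimmer Acat3 probe went another way, with 0.11, 0.05 and -1.16, so these values rest on the brighter probe.

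From squalene on, all 9 enzymes tested were lower on day 1, 7 were lower and 1 higher on day 3, and 4 were lower and 2 higher on day 7. Sqle, the squalene epoxidase that takes up oxygen in a rate-controlling late step, had levels of 2.91 and 2.86 for normoxia, 2.10 and 2.15 for day 1, 2.54 and 2.54 for day 3 and 3.24 and 3.25 for day 7 (chromosome 7, 96111693 to 96111752). Day 1 was lowest and day 7 highest, with no overlap between groups. The changes were -0.76 ± 0.04 (adjusted p = 0.000262), -0.35 ± 0.04 and 0.36 ± 0.04 (adjusted p = 0.000773), and the day 7 call was lost with quantile normalization (0.11) and with the probe GC trend removed (0.10). Cyp51, the lanosterol demethylase, which also uses oxygen, had levels of 1.69 and 1.73 for normoxia, 0.87 and 0.86 for day 1, 0.82 and 0.79 for day 3 and 1.45 and 1.46 for day 7 (chromosome 4, 26771049 to 26771108). It stayed low over days 1 and 3, at -0.84 ± 0.04 and -0.90 ± 0.04 (adjusted p = 0.000143 and 0.000114). On day 7 it was at -0.25 ± 0.04, a direction that turned to 0.04 with median centring.

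Nsdhl and Hsd17b7 work together in removing methyl groups from the sterol ring, and both were lower on all 3 days. Nsdhl was at -0.71 ± 0.04, -1.03 ± 0.04 and -0.90 ± 0.04, and its 2.04-fold decrease on day 3 exceeded that of every other member on that day. Hsd17b7 was at -0.62 ± 0.04, -0.58 ± 0.04 and -0.31 ± 0.04, with the last not called under median centring (-0.02). Sc4mol, the oxidase of the same complex measured as Msmo1, was at -0.80 ± 0.04 and -0.73 ± 0.04 on days 1 and 3 and at 0.08 ± 0.04 on day 7. The reductases Tm7sf2 and Dhcr7 fell by 0.95 ± 0.04 and 0.96 ± 0.05 on day 1 and by 0.52 ± 0.04 and 0.68 ± 0.05 on day 3. Neither was called on day 7 (0.01 and -0.14), while with median centring Tm7sf2 was called higher (0.31) and Dhcr7 turned to 0.15.

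Recovery differed among the remaining late enzymes. Lss, the cyclase that makes lanosterol, fell on day 1 (-0.38 ± 0.05) and was not called on day 3 or day 7 (-0.03 and -0.05, with day 7 at 0.25 with median centring). Sc5dl, a sterol desaturase now named Sc5d, was at -0.31 ± 0.06, -0.64 ± 0.06 and -0.48 ± 0.06. Its day 1 call was lost without either normoxia array (-0.30 and -0.31), and its day 7 call with median centring (-0.19). Ebp, the sterol isomerase, was called lower on day 1 (-0.26 ± 0.06) and higher on days 3 and 7 (0.29 ± 0.06 and 0.33 ± 0.06). The day 1 call of Ebp was lost when any of the arrays compared was left out (-0.30 to -0.22), and its day 3 call without either normoxia array or without day 3 array 2 (0.26 to 0.30). Its day 7 call was lost with quantile normalization (0.19) and with normexp (0.26).

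**Figure D2:**
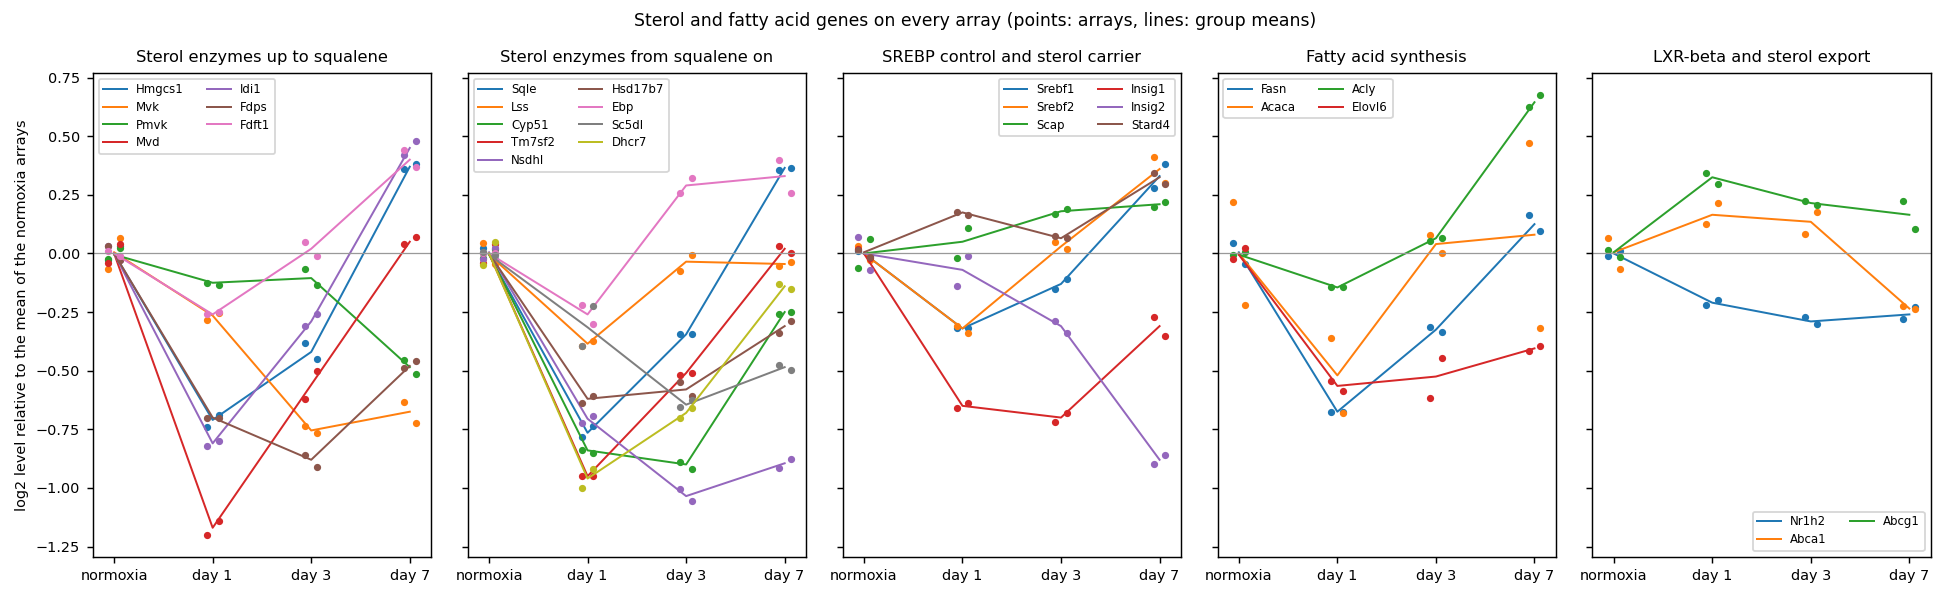
Log2 level of each member relative to the mean of the normoxia arrays, in normoxia and on days 1, 3 and 7, with points for the arrays and lines through group means, and a panel for each role. Sqle, Idi1 and Hmgcs1 drop on day 1 and end above 0 on day 7, while Mvk, Nsdhl and Insig2 end below it.

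The promoters of these enzymes were read for the boxes that SREBP and its partner factors bind, since the genes moved together on day 1. RefSeq windows of build GRCr8, from 250 bases before to 50 after the gene start, were found for 23 of the 31 members. The sterol regulatory element was searched as TCACNCCAC on both strands and was in none of the 23 windows, and in 1.13% of 27456 promoters. Only this exact pattern was searched, so variant forms of the element would be missed and its absence from these promoters is not shown. The NF-Y box CCAAT was in 17 of 23 (73.9%, against 37.74% of all promoters), the Sp1 box GGGCGG in 19 of 23 (82.6%, against 34.89%) and the E-box CACGTG in 4 of 23 (17.4%, against 6.65%). Matches of different patterns shared no letters in these windows, and each match is a description of the letters. The 27456 promoters were not matched to the members in base composition or type of gene, and no difference in share was tested. Of 15 sterol enzymes with a window, 12 held CCAAT. The 250 bases upstream of the start are printed for 4 members called on all 3 days that held CCAAT, in order of the F-test, to show how these boxes sit near the start; they were chosen after the matches were seen. Capitals mark CCAAT, or ATTGG where the box lies on the other strand, and all are 5′ to 3′ on the strand of the gene. The windows are chr17:66547525-66547774 (minus strand) for Idi1, chrX:155817110-155817359 (plus) for Nsdhl, chr2:53382054-53382303 (plus) for Hmgcs1 and chr2:176804817-176805066 (minus) for Fdps.
Idi1: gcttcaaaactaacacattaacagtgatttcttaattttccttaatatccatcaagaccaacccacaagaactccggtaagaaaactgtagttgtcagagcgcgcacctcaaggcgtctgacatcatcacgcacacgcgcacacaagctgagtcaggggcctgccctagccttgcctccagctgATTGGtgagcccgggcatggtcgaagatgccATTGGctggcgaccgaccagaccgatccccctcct
Nsdhl: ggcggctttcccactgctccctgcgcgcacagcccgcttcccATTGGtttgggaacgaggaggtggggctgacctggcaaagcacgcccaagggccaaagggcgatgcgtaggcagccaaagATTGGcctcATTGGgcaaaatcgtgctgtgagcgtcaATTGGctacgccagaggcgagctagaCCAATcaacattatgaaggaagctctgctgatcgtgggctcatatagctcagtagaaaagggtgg
Hmgcs1: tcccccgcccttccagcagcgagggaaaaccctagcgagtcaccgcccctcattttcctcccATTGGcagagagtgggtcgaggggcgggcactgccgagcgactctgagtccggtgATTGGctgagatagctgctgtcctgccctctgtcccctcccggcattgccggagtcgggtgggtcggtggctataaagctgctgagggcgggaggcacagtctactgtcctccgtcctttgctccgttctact
Fdps: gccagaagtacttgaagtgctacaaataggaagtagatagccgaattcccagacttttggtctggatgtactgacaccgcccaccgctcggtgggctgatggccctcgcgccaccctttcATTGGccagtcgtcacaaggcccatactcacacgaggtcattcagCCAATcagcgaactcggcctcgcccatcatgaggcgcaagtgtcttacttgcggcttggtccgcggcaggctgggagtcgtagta
Idi1 held 2 boxes, beginning 66 and 35 bases before the start. Nsdhl held 5, between 208 and 65 bases before it. Hmgcs1 and Fdps held 2 each, from 188 to 133 and from 130 to 85 bases before the start.

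**Figure D3:**
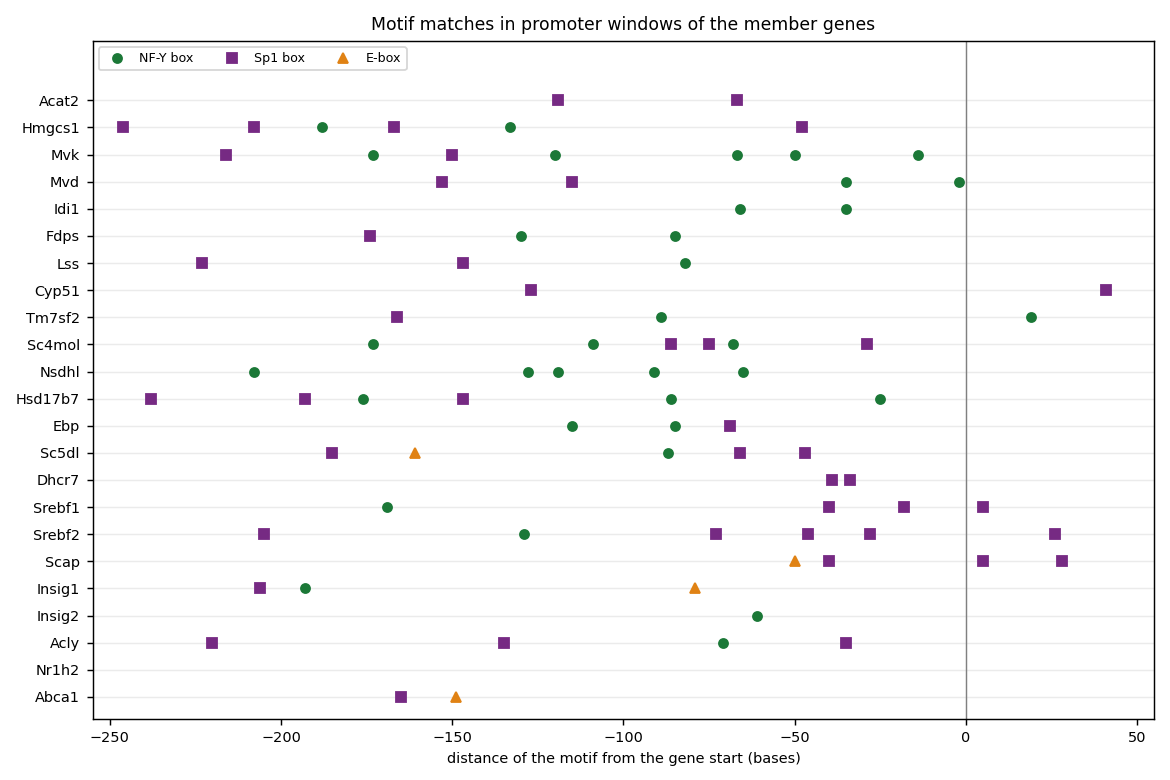
Positions of NF-Y, Sp1 and E-box matches on either strand in the promoter windows of 23 members, by distance in bases from the gene start (0). NF-Y boxes appear in 17 of the 23 and Sp1 boxes in 19, most of them before the start.

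Among the regulators, the transcription factor genes themselves fell on day 1 and rose on day 7. Of 6 regulator and carrier genes tested, 3 were lower and 1 higher on day 1, 2 were lower on day 3 and 2 lower and 4 higher on day 7. Srebf2, whose product drives cholesterol synthesis, had levels of 2.97 and 2.91 for normoxia, 2.63 and 2.60 for day 1, 2.99 and 2.96 for day 3 and 3.35 and 3.24 for day 7 (chromosome 7, 120580150 to 120580209). The day 3 arrays overlapped normoxia, and the others did not. Srebf2 was at -0.32 ± 0.05 on day 1 (adjusted p = 0.00728), 0.03 ± 0.05 on day 3 and 0.36 ± 0.05 on day 7 (adjusted p = 0.00206). Srebf1, whose product leans to fatty acid synthesis, had levels of 2.76 and 2.74 for normoxia, 2.43 and 2.43 for day 1, 2.60 and 2.64 for day 3 and 3.03 and 3.13 for day 7 (chromosome 10, 46462235 to 46462294). Day 1 was lowest and day 7 highest for it as well. Its changes were -0.32 ± 0.05 (adjusted p = 0.00611), -0.13 ± 0.05 (not called) and 0.33 ± 0.05 (adjusted p = 0.00222). The day 7 calls of both were lost with quantile normalization (0.11 for Srebf2 and 0.09 for Srebf1) and with cyclic loess, and the day 7 direction of Srebf1 turned to -0.17 with the probe GC trend removed. The day 3 change of Srebf1 was called lower without either day 7 array (-0.13), with an intensity trend in the prior (-0.13), with quantile normalization (-0.25), cyclic loess (-0.24) and normexp (-0.29), and with the GC trend removed (-0.41).

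Insig1, an SREBP target that anchors Scap, had levels of 1.40 and 1.36 for normoxia, 0.72 and 0.74 for day 1, 0.66 and 0.70 for day 3 and 1.11 and 1.03 for day 7 (chromosome 4, 2578292 to 2578348). It remained below normoxia throughout, lowest on days 1 and 3, at -0.65 ± 0.04 (adjusted p = 0.000575), -0.70 ± 0.04 (adjusted p = 0.000303) and -0.31 ± 0.04. The last was not called with median centring (-0.01). Its relative Insig2 followed another course, at -0.07 ± 0.07 (not called), -0.31 ± 0.07 and -0.88 ± 0.07 (adjusted p = 0.000283). The other Insig2 probe gave 0.24, -0.44 and -0.37, and the day 3 call was lost without normoxia array 1 (-0.24) or day 3 array 2 (-0.29). Scap, the escort of SREBP, was called on day 7 only among the 3 days (0.21 ± 0.06), and its direction turned to -0.03 with quantile normalization and with cyclic loess; it was not called without normoxia array 1 (0.15) or without any array of day 3 or day 7 (0.20 to 0.21). Stard4, a carrier that moves sterol between membranes, was called higher on day 1 (0.17 ± 0.03) and day 7 (0.32 ± 0.03). The day 1 call of Stard4 was lost when any of the arrays compared was left out (0.16 to 0.18), and its dimmer probe gave 0.78, -0.02 and 0.02 on the 3 days.

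The fatty acid genes were 3 of 4 lower on day 1, 2 of 4 lower on day 3, and 1 lower and 1 higher on day 7. Fasn, the fatty acid synthase, had levels of 3.07 and 2.98 for normoxia, 2.35 and 2.35 for day 1, 2.71 and 2.69 for day 3 and 3.19 and 3.12 for day 7. Days 1 and 3 lay below normoxia without overlap, at -0.67 ± 0.05 (adjusted p = 0.000673) and -0.33 ± 0.05 (adjusted p = 0.00353). Its day 7 change of 0.13 ± 0.05 was not called (adjusted p = 0.0616), and was called without normoxia array 1 (0.17). Acly, which supplies cytosolic acetyl-CoA from citrate, had levels of 4.23 and 4.24 for normoxia, 4.09 and 4.09 for day 1, 4.29 and 4.30 for day 3 and 4.86 and 4.91 for day 7 (chromosome 10, 89420943 to 89421002). The day 7 arrays stood well above the rest. Its 1.57-fold rise on day 7 (0.65 ± 0.04, adjusted p = 0.000102) exceeded that of every other member on that day. The small day 1 decrease (-0.14 ± 0.04) was not called when any of the arrays of normoxia, day 1 or day 3 was left out (-0.15 to -0.14). Elovl6, an elongase, was lower on each day at -0.56 ± 0.06, -0.53 ± 0.06 and -0.40 ± 0.06, the last not called with median centring (-0.11). Its dimmer probe was lower by more, at -0.74, -1.33 and -1.51.

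Of 3 genes of the export side, 1 was lower and 1 higher on day 1 and again on day 3, and 2 were lower and 1 higher on day 7. Nr1h2, the liver X receptor beta, had levels of 0.83 and 0.85 for normoxia, 0.62 and 0.64 for day 1, 0.57 and 0.54 for day 3 and 0.56 and 0.61 for day 7 (chromosome 1, 95027486 to 95027545). Its hypoxia arrays all lay below normoxia by a small step, at -0.21 ± 0.04, -0.29 ± 0.04 and -0.26 ± 0.04 (adjusted p = 0.00995, 0.00227 and 0.00215). The day 1 call of Nr1h2 was lost without normoxia array 2 or day 1 array 1 (-0.20 each), and the day 7 direction turned to 0.04 with median centring. Abcg1, which passes sterol to lipoproteins, had levels of 2.25 and 2.22 for normoxia, 2.58 and 2.53 for day 1, 2.46 and 2.44 for day 3 and 2.46 and 2.34 for day 7 (chromosome 20, 9459359 to 9459418). It was above normoxia on all 6 hypoxia arrays and was called higher on the 3 days (0.32 ± 0.05, 0.21 ± 0.05 and 0.16 ± 0.05). Those calls were fragile: without day 1 array 1 the day 1 change was 0.30 (adjusted p = 0.0551), without any of the arrays compared the day 3 change was 0.20 to 0.23 and not called, and the day 7 direction turned to -0.04 with quantile normalization and -0.05 with cyclic loess, and was not called without any 1 array other than day 7 array 2 (0.10 to 0.18). Abca1, the exporter that lipidates apolipoproteins, had levels of -3.40 and -3.53 for normoxia, -3.34 and -3.25 for day 1, -3.38 and -3.29 for day 3 and -3.69 and -3.70 for day 7 (chromosome 5, 70493613 to 70493672). It was not called on day 1 or day 3 (0.17 ± 0.06 and 0.13 ± 0.06), but was called higher on day 3 with quantile normalization, median centring and normexp (0.28 each) and with cyclic loess (0.35). Its day 7 decrease of -0.23 ± 0.06 turned to 0.06 with quantile normalization, median centring, normexp and cyclic loess. It was not called without normoxia array 1 or either day 7 array (-0.24 to -0.17).

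Consecutive groups were also set against each other. On day 3, 13 members were higher and 5 lower than on day 1, where 28.2% of all genes were higher and 23% lower, with a member median of 0.13 against 0.03. Without day 1 array 2 or day 3 array 2, 3 were lower. Mvd was higher by 0.61 ± 0.06 (adjusted p = 0.000962), Ebp by 0.55 ± 0.06, Idi1 by 0.52 ± 0.04 and Tm7sf2 by 0.44 ± 0.04. Mvk (-0.48 ± 0.06), Sc5dl (-0.33 ± 0.06) and Nsdhl (-0.32 ± 0.04) were lower instead, while Cyp51 and Insig1 were not called (-0.06 and -0.05). Fdps was called lower (-0.18 ± 0.04) on its brighter probe, and the mean of its probes gave 0.03. The calls of Hmgcs1 (0.30 ± 0.04) and Acly (0.21 ± 0.04) were lost with quantile normalization (0.05 and 0.04) and with cyclic loess (0.04 and 0.01), and that of Insig2 (-0.24) with quantile normalization (-0.15), median centring (-0.12) and cyclic loess (-0.16), among others. On day 7, 16 members were higher and 3 lower than on day 3, where 24.2% of all genes were higher and 18.3% lower, with a member median of 0.26 against 0.05. Both groups lay in the same slide row but in different columns. Hmgcs1 was higher by 0.79 ± 0.04 (adjusted p = 0.000529), Idi1 by 0.74 ± 0.04, Sqle by 0.71 ± 0.04, Cyp51 by 0.65 ± 0.04 and Acly by 0.59 ± 0.04. Insig2 (-0.57 ± 0.07), Pmvk (-0.38 ± 0.04) and Abca1 (-0.36 ± 0.06) were lower.

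The change of a gene went with its signal level over the whole array, most on day 7. For days 1, 3 and 7 in turn, the Spearman correlation of change with mean level was 0.22, 0.38 and 0.43 over all genes and -0.01, 0.28 and 0.68 over the 29 members, where genes share arrays and are not replicates. Of the members, 19 lay in the 3 brightest deciles of all genes, whose median day 7 changes were 0.17, 0.26 and 0.36. Beside the median of their own decile, 25 of 29 members lay below on day 1, 22 below on day 3 and 18 below on day 7. The day 7 change of Hmgcs1 (0.37) was about that of its decile (0.36), and those of Sqle and Srebf2 (0.36 each) exceeded theirs by 0.10. For Acly and Idi1 the excess was 0.29 and 0.19. On the other side Nsdhl, Fdps and Insig2 lay 0.84, 0.74 and 0.74 below their deciles. Cyclic loess, which removes such trends and was added after the data were seen, left 21 members lower on day 1, 19 lower on day 3, and 11 lower and 6 higher on day 7. Quantile normalization left 4 higher on day 7. Over all genes, 6705 were called higher on day 7 with quantile normalization and 6365 with cyclic loess, against 6717 in the main fit. Of all genes called, 48% were higher on day 3 and 51.5% on day 7, and these shares moved to 66.7% and 73.1% with median centring and to 67.8% and 71.5% with normexp. The part of signal level in the day 7 rises was not tested.

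**Figure D4:**
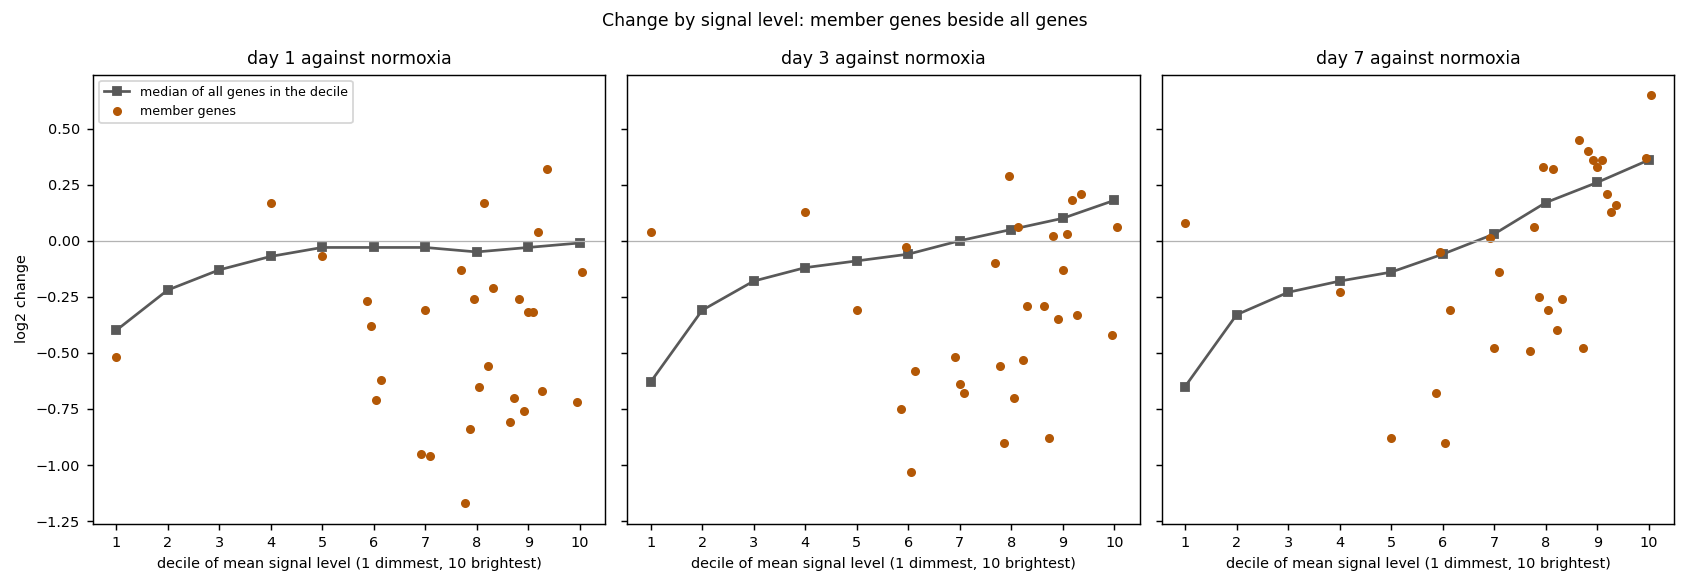
Log2 change against normoxia of the 29 members (orange) by decile of mean signal level (1 dimmest to 10 brightest), beside the median of all genes in each decile (grey squares), on days 1, 3 and 7. Members lie below the grey line on days 1 and 3 for the most part (25 and 22 of 29), and spread to either side of it on day 7.

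The fold of at least 1.5, which left 12 members lower on day 1 and 7 lower on day 3, is left aside here. Calls that held in the same direction under every one of the other 20 alternatives that gave a value were fewer than all calls. They numbered 16 of the 22 lower on day 1 and 15 of the 17 lower on day 3. On day 7 they were 5 of the 12 lower (Mvk, Pmvk, Fdps, Nsdhl and Insig2) and 4 of the 11 higher (Idi1, Fdft1, Stard4 and Acly). None of the 2 higher on day 1 or the 2 higher on day 3 held by limma's test. From day 3 to day 7, 14 of the 16 higher and 2 of the 3 lower held.

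Cholesterol synthesis is strong in oligodendrocytes and astrocytes, so their markers were set beside the members. The summed level of the 7 enzymes up to squalene was 76.0 and 78.2 for normoxia, 47.6 and 48.9 for day 1, 59.2 and 57.0 for day 3 and 93.4 and 94.4 for day 7. For 12 myelin markers it was 192.6 and 223.9 for normoxia, 219.6 and 204.0 for day 1, 238.9 and 245.9 for day 3 and 253.7 and 248.3 for day 7. For 6 astrocyte markers it was 79.9 and 83.8 for normoxia, 80.2 and 80.9 for day 1, 87.0 and 88.0 for day 3 and 112.4 and 110.0 for day 7. On day 1, 2 of 12 myelin and 3 of 6 astrocyte markers were called lower, and 3 and 1 higher. On day 7 the astrocyte and myelin sums were both above their normoxia range, as was the sum of the 7 enzymes. Such sums add different probes and lean on the brightest. Among the enzymes that was Hmgcs1 (5.80 and 5.86 for normoxia, 6.19 and 6.21 for day 7). Among the myelin markers it was Mbp (6.75 and 7.12, then 7.44 and 7.37). By calls on day 7, 3 of the 7 enzymes were lower and 3 higher, with a median of 0.06. Of the 12 myelin markers 7 were lower and 4 higher, and of the 6 astrocyte markers 2 and 4. All 6 leptomeningeal markers were called lower on each day, with medians of -1.19, -1.12 and -1.67, and their sum was 16.4 and 16.2 for normoxia, 6.29 and 6.23 for day 1, 10.6 and 10.6 for day 3 and 5.23 and 5.12 for day 7. Of the 10 choroid plexus markers all were called lower on days 1 and 7, and 4 were lower and 3 higher on day 3 (median -0.20). All 7 striatum markers were called higher on day 1, and 2 were higher and 3 lower on day 3. The part of any of these cell or tissue types in the changes of the members was not tested.

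**Figure D5:**
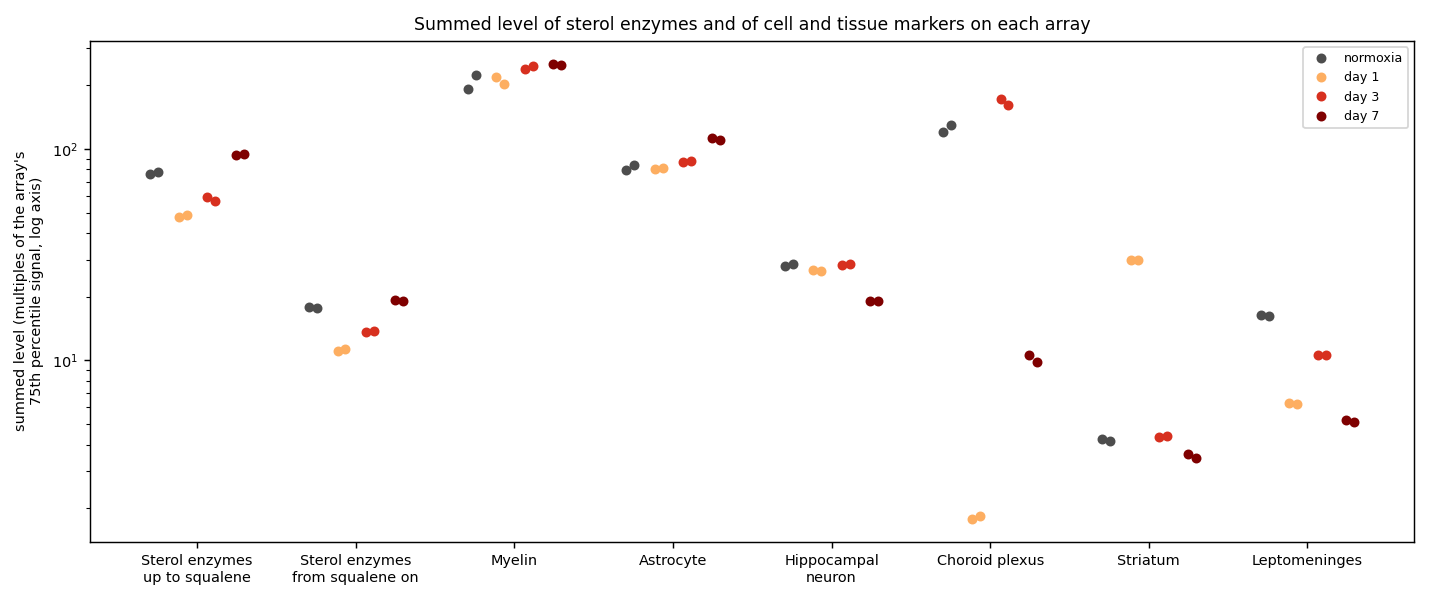
Summed level (multiples of the array's 75th percentile signal, log axis) of sterol enzymes and of marker lists on each array in normoxia and on days 1, 3 and 7. The sterol enzyme sums are lowest on day 1 and highest on day 7, and the astrocyte and myelin sums are also highest on day 7, while the choroid plexus and leptomeninges sums are far below normoxia on days 1 and 7. Each sum leans on its brightest probes. By calls on day 7, 7 sterol enzymes were lower and 5 higher, 7 myelin markers lower and 4 higher, and 2 astrocyte markers lower and 4 higher.

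The wider sterol and lipid pathway gave a mixed picture. Of 32 further genes, 30 were tested: 10 were lower and 3 higher on day 1, 15 lower and 6 higher on day 3, and 17 lower and 10 higher on day 7, with medians of -0.10, -0.48 and -0.48 against -0.07, -0.05 and -0.03 over all genes. Over all genes 20.2%, 26.2% and 29.7% were lower and 15.3%, 24.2% and 31.5% higher on these days. Not every gene that met the naming rule is named here. Slc25a1, the mitochondrial citrate exporter, was at -0.39 ± 0.06, -1.27 ± 0.06 and -1.55 ± 0.06 on the 3 days (day 7 adjusted p = 4.61e-05). Acly, the enzyme that uses this citrate, was higher on day 7. Acss2, which makes acetyl-CoA from acetate, was lower on each day (-0.42, -0.50 and -0.53), as was the sterol-responsive Tmem97 (-0.46, -0.66 and -0.23). Cyp46a1, the neuronal hydroxylase that turns brain cholesterol into an exportable oxysterol, was higher on day 1 (0.33 ± 0.05) and then lower by 0.76 ± 0.05 on day 3 and by 1.72 ± 0.05 on day 7 (adjusted p = 2.83e-05). Among 8 hippocampal neuron markers, 5 were lower and 2 higher on day 7, with a summed level of 19.1 and 19.1 on day 7, against 27.9 and 28.5 in normoxia. Higher on day 7 were Me1, which makes NADPH for fatty acid synthesis (0.67 ± 0.04), the acyl-CoA synthetase Acsl3 (0.73 ± 0.05), the elongase Elovl1 (0.47 ± 0.04) and Mbtps1, the protease that cuts SREBP (0.37 ± 0.04). None of these rises was particular to day 7. Me1 and Acsl3 were also called higher on day 3 (0.25 and 0.43), and Elovl1 (0.22 and 0.22) and Mbtps1 (0.23 and 0.37) on days 1 and 3. The other Mbtps gene, Mbtps2, was not called on day 1 (-0.13) and was lower on days 3 and 7 (-0.82 and -0.64).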

How the data were processed

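Hippocampal RNA was measured on 8 arrays, and groups come from the labels. Scanner files hold background-subtracted signal intensity, per the file headers, made by the authors with Agilent Feature Extraction 11.5.1.1, with annotation on rat build rn4. The deposited value table is in log2 units of unstated scaling and served as an alternative. Without control and outlier spots, a probe was the mean log2 signal of its spots, less the 75th percentile of the 30367 probes on that array. A filter kept 24678 of 30346 probes, those well above background on all arrays of some group, and the probe of highest mean stood for a gene. limma 3.58.1 in R 4.3.3 fitted 1 model with a mean per group, two-sided, for 5 comparisons and an F-test. Prior and residual degrees of freedom were 1.22 and 4. The number of arrays limits the precision.

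Arrays of the same number were not paired, since their deviations correlated at -0.15 to 0.05. The alternatives were quantile normalization, median centring, normexp (offset 50), the authors' values, other filters, the mean of probes, an intensity trend, only the groups compared, a block, a GC trend, a fold of 1.5, leaving out each array and, added after the data were seen, cyclic loess. Members and lists were chosen with earlier results of these data known. All members could be named; values on every array are given for the 2 called members of smallest F-test p in each role group and for 9 fixed genes. Other pathway genes were named up to 4 per direction and comparison by p, and Mbtps2 was added beside Mbtps1 outside this rule. The procedure was tested on simulated data, and tables were handled with Python 3.11.15, pandas 2.3.3, numpy 2.4.6, the data.table package (version 1.17.8) and matplotlib 3.10.9.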

Additional observations from a re-analysis of the deposited data

Results flagged for a closer look

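The change against normoxia differed between days for 18 members from day 1 to day 3 and for 19 members from day 3 to day 7, by the limma test of the days against each other at an adjusted p under 0.05. The normoxia arrays cancel in these differences. In log2 units, the day 3 change exceeded the day 1 change for Mvd 0.61, Ebp 0.55, Idi1 0.52, Tm7sf2 0.44, Sqle 0.41, Fasn 0.35, Srebf2 0.35, Lss 0.35, Hmgcs1 0.30, Dhcr7 0.28, Fdft1 0.28, Acly 0.21 and Srebf1 0.19. Of these, Hmgcs1, Acly and Srebf1 were not called with quantile normalization (0.05, 0.04 and 0.06) or with cyclic loess (0.04, 0.01 and 0.06). The day 3 change was below the day 1 change for Mvk -0.48, Sc5dl -0.33, Nsdhl -0.32, Insig2 -0.24 and Fdps -0.18. The day 7 change exceeded the day 3 change for Hmgcs1 0.79, Idi1 0.74, Sqle 0.71, Cyp51 0.65, Mvd 0.62, Acly 0.59, Dhcr7 0.54, Tm7sf2 0.53, Srebf1 0.46, Fasn 0.45, Fdps 0.41, Insig1 0.39, Fdft1 0.38, Srebf2 0.32, Hsd17b7 0.26 and Stard4 0.25. It was below the day 3 change for Insig2 -0.57, Pmvk -0.38 and Abca1 -0.36. No group had enough arrays to look for single arrays far from the rest.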

How the results depend on the processing

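Counts of members called lower on day 1 (22) and on day 3 (17) stayed within 1.5 times under every alternative except a fold of at least 1.5, which left 12 and 7. That fold also left 0 higher on day 1, 0 higher on day 3, 3 lower and 1 higher on day 7, 0 lower and 1 higher from day 1 to day 3, and 0 lower and 6 higher from day 3 to day 7, since most changes are smaller. Median centring gave 8 higher on day 3, 5 lower on day 7 and 3 lower from day 1 to day 3. Quantile normalization gave 4 higher on day 7 and 8 lower from day 1 to day 3, and cyclic loess 6 and 8. Normexp gave 0 higher on day 1 and 3 lower from day 1 to day 3, and removing the GC trend gave 9 lower there. Leaving out 1 array gave 0 to 2 higher on day 1, 0 to 2 higher on day 3 and 3 to 5 lower from day 1 to day 3, against 2, 2 and 5 with all arrays.

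Directions turned on day 7 for Hmgcs1 (-0.13 quantile, -0.07 cyclic loess), Srebf1 (-0.17, GC trend removed), Scap (-0.03, quantile and cyclic loess), Abcg1 (-0.04 and -0.05, the same) and Abca1 (0.06 with quantile, median centring, normexp and cyclic loess). Median centring also turned Lss (0.25), Cyp51 (0.04), Dhcr7 (0.15) and Nr1h2 (0.04). On day 3 Acly turned to -0.12 with cyclic loess. From day 1 to day 3, removing the GC trend turned Hsd17b7 (-0.14) and Srebf1 (-0.07), and the mean of a gene's probes turned Fdps (0.03) and Elovl6 (-0.28). The causes were not tested. With the replicate block, Insig2 lost its call from day 1 to day 3 (-0.24, adjusted p = 0.0657), Scap was called on day 3 (0.18, adjusted p = 0.0484) and no other member call changed; the numbers do not pair the arrays.

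Median centring moved the median of all genes to 0.10 on day 3 and 0.26 on day 7, and normexp to 0.13 and 0.22. Of all genes called, the share higher from day 1 to day 3 was 55.1%, against 68.9% and 70.7% with these, and from day 3 to day 7 it was 57%, against 77.2% with median centring.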
